A study of Mus musculus with 32 samples.

Results

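The major urinary protein (Mup) genes of mouse liver were followed across 8 groups of mice treated with locked nucleic acid oligonucleotides (LNAs). The 10 genes described are Mup1, Mup3, Mup7, Mup9, Mup13, Mup15, Mup16, Mup17, Mup20 and Mup21. They were taken by symbol from the 20 Mup rows of the authors' deposited table, which lists 24197 genes in all. The list was drawn up with the group means, ratios and p-values of this table in view, and its members were thus chosen by those measured values, which are given as a description and no test of them was added.

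The study used 32 outbred Crl:CD1(ICR) mice and sequenced poly(A) RNA of whole liver with strand-specific libraries. LNA-802, an antisense inhibitor of miR-802-5p, went to females, and LNA-1948, an inhibitor of miR-1948-5p, went to males, while control mice of either sex received a scrambled LNA. All mice, controls included, had 2 subcutaneous injections of 25 mg/kg on consecutive days from 9 weeks of age, although a separate age label reads 10 weeks. Livers were taken on day 3 or day 6. The groups were LNA-802 females at day 3 (5 mice), scrambled females at day 3 (3 mice), LNA-802 females at day 6 (5 mice), scrambled females at day 6 (3 mice), LNA-1948 males at day 3 (5 mice), scrambled males at day 3 (3 mice), LNA-1948 males at day 6 (5 mice) and scrambled males at day 6 (3 mice). The titles of the 3 scrambled females at day 6 repeat 1 animal number but carry different mouse codes, and they are taken as 3 mice here, which every comparison with that group rests on. Neither inhibitor was given to both sexes, so inhibitor and sex cannot be told apart, and the libraries of the 2 days carry different series codes in the labels. Each mouse of an outbred stock has its own genotype, and the whole liver holds every cell type of the organ.

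MUPs are small lipocalins, barrel-shaped carriers that hepatocytes secrete into blood and that pass through the kidney into urine, where they bind and slowly release volatile pheromones. Male liver makes far more of them than female liver, because pulsatile growth hormone, acting through the transcription factor STAT5, and androgens drive their genes. The genes lie in 1 cluster, with older, divergent copies toward its edges and a central block of recently duplicated, nearly identical copies.

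The oligonucleotides set the groups apart, so their sequences are shown first. The capitals mark the last 7 bases of each LNA, and bases 2 to 8 (the seed) of the microRNA.
LNA-1948: ggcagaatACTCATA
LNA-802: gaatctttGTTACTG
scrambled LNA: acgtctatACGCCCA
miR-802-5p: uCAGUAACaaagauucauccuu
LNA-802 is complementary to bases 2 to 16 of miR-802-5p, whose sequence comes from RefSeq (GRCm38.p6). None of the 10 Mup genes held the last 7 bases of any of the 3 LNAs in its longest coding transcript, on the transcript strand, and neither did any of the 20 Mup genes. Over 21877 genes, ACTCATA of LNA-1948 was found in 10.5%, GTTACTG of LNA-802 in 15.3% and ACGCCCA of the scrambled LNA in 8.43%. The absence says only that these letters are not in those transcripts. The letters were searched as written, and the complementary sequence, with which an LNA could pair, was not searched.

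The 20 Mup rows span mm9 chromosome 4 from 59969677 to 61811875, a stretch of 1842 kb. Mup7 (60079340 to 60083347) lies nearest the low end among the 10, and Mup21 (61808865 to 61811875) closes the high end, preceded by Mup3 (61744510 to 61748346) and Mup20 (61711268 to 61715151). Between them lie Mup9 (60430918 to 60434824), Mup1 (60510884 to 60514832), Mup13 (60885338 to 60889318), Mup16 (61176624 to 61180518) and Mup17 (61252962 to 61256864). Mup15 has a location at 61096818 to 61100736 and another, much longer one at 60079340 to 60152730. These intervals are whole gene spans, exons and introns together. The longer Mup15 location covers the Mup7 row and a location of the Mup2 row, so Mup7 and Mup15 are the 2 of the 10 genes whose rows overlap another row.

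Mup20, Mup3 and Mup21, which lie together at the high end, also stood apart by transcript sequence. Identity over aligned bases ranged from 98.4% to 99.4% over the 21 pairs among Mup1, Mup7, Mup9, Mup13, Mup15, Mup16 and Mup17, called the central genes from here on. Mup3, Mup20 and Mup21, the edge genes, shared 84.0% to 91.1% with a central gene, and Mup3 and Mup21 shared 96.1% with each other. The heat map of transcript identity shows this as a block of 7 genes with 3 outside it. In the Mup15 transcript 0% of 50-base windows were absent from the transcripts of all other genes, Mup or not. This share was 5.24% in Mup1, 7.44% in Mup9, 7.59% in Mup13, 9.34% in Mup16, 9.76% in Mup7 and 21.9% in Mup17. It was 49.5% in Mup20, 80.7% in Mup21 and 84.4% in Mup3. How the authors' counting treated reads that match several copies is not given in the sources used here, so the values of single central genes are uncertain. Sums over the 10 genes can be affected too, since they leave out close copies such as Mup10 and any reads that were not counted.

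**Figure D1:**
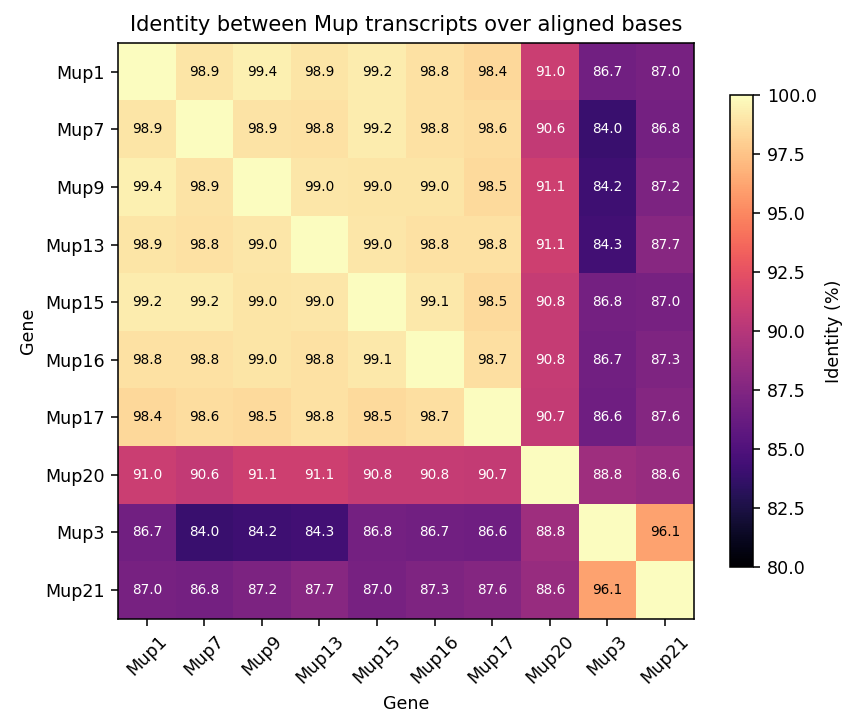
Identity in percent over aligned bases between the longest coding transcripts of the 10 Mup genes, with genes on both axes. The 7 central genes form a block at 98.4% to 99.4%, and Mup20, Mup3 and Mup21 stand outside it, with Mup3 and Mup21 at 96.1% to each other.

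The start-proximal sequence of 2 central and 2 edge genes is shown because the 4 genes that passed the threshold at day 6 in males, described further on, were all central. Each line holds the 250 bases before the annotated start in RefSeq (GRCm38.p6), and capitals mark TATATAA.
Mup9, chr4:60421953-60422202, minus strand: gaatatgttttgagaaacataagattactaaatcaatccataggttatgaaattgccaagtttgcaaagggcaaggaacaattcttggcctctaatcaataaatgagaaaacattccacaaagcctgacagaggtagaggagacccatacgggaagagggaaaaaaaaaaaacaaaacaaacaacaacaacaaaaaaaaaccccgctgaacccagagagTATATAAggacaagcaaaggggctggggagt
Mup17, chr4:61595833-61596082, minus strand: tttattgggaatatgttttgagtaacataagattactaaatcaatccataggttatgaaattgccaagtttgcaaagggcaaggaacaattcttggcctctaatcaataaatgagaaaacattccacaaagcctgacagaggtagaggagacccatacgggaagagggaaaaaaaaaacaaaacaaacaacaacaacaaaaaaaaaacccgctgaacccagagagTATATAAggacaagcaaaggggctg
Mup3, chr4:62087318-62087567, minus strand: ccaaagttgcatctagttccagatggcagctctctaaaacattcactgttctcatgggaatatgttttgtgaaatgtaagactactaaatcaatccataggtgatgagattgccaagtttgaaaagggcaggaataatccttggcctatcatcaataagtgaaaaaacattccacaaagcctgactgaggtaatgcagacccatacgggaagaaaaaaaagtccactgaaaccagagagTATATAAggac
Mup21, chr4:62150842-62151091, minus strand: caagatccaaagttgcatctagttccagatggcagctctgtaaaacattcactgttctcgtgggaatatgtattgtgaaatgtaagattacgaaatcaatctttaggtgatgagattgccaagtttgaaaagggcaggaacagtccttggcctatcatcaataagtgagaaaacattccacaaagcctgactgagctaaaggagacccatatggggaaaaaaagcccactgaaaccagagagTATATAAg
Mup9 and Mup17 matched at 99.2% of 242 aligned bases, and Mup3 and Mup21 at 93.4% of 244, while Mup9 and Mup3 matched at 89.1% of 193. TATATAA, searched on both strands, was present in 5 of the 6 promoters of the listed genes that the reference table held, against 3.26% of 27025 promoters of the same length. The STAT5-type motif TTCNNNGAA, searched on both strands, was in 0 of these 6 and in 7.18% of all promoters. A match or its absence describes this window only. Mup1, Mup13, Mup16 and Mup20 had no entry.

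Values are the authors' mean FPKM of each group, a level scaled to transcript length and library size. Levels are set side by side between genes as listed. How far reads shared by near-identical copies shift the level of a central gene against that of an edge gene was not tested. The authors' deposited table gives no value per mouse, so no error stands beside a mean and its depth is unknown. Group totals lay between 198940 and 206757 FPKM and 9004 to 9327 genes reached 1 FPKM. Hepatocyte markers were abundant in every group, with Alb, the serum albumin gene, at 14069 to 22690.3 FPKM, and 6 lymphocyte markers together reached 0.678 to 1.42 FPKM. Fewer cells of a type and less RNA per cell cannot be told apart in whole liver.

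Mup3 had the highest mean FPKM of the 10 genes in every group. Its mean was 2412 FPKM in LNA-1948 males and 2785 FPKM in scrambled males at day 3, and 2682 FPKM in LNA-1948 males and 2785 FPKM in scrambled males at day 6. In females it was 580.2 FPKM with LNA-802 and 599.6 FPKM with scrambled LNA at day 3, and 762.5 FPKM with LNA-802 and 501 FPKM with scrambled LNA at day 6. Mup3 therefore varied little among the male groups, and every male mean lay above every female mean. Mup20, which encodes darcin, a pheromone protein of male urine that attracts females, came next in males. It reached 802.4 FPKM in LNA-1948 males and 1174 FPKM in scrambled males at day 3, and 1534 FPKM in LNA-1948 males and 555 FPKM in scrambled males at day 6. In females its means were 11.6 FPKM with LNA-802 and 8.97 FPKM with scrambled LNA at day 3, and 14.03 FPKM with LNA-802 and 8.62 FPKM with scrambled LNA at day 6. Thus Mup20 was second in all male groups and low in all female ones. Mup21, the edge gene beside Mup3, lay between 77.0 and 193 FPKM in males and between 4.47 and 6.80 FPKM in females.

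Central genes had lower mean FPKM than Mup3 in every group, and lower than each edge gene in all male groups. Their levels carry the uncertainty about shared reads given above. Mup1, whose product is also known as a secreted regulator of glucose metabolism in mice, had means of 51.4 to 82.2 FPKM in males and 9.05 to 14.3 FPKM in females. Mup17 ran from 11.9 to 85.5 FPKM in males and from 3.01 to 7.32 FPKM in females, and Mup7 from 17.2 to 50.3 FPKM in males and from 1.38 to 2.18 FPKM in females. Mup9 was unlike these: its female means of 15.4 to 36.1 FPKM lay within the male range of 3.502 to 80.3 FPKM. Mup13 lay at 2.46 to 14.2 FPKM in males and 0.897 to 2.44 FPKM in females, and Mup16 at 1.67 to 8.96 FPKM in males and 0.922 to 2.26 FPKM in females. Mup15 was at or close to 0 outside the males given LNA-1948. With no spread between mice, it cannot be said which neighbours in these orders differ.

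**Figure D2:**
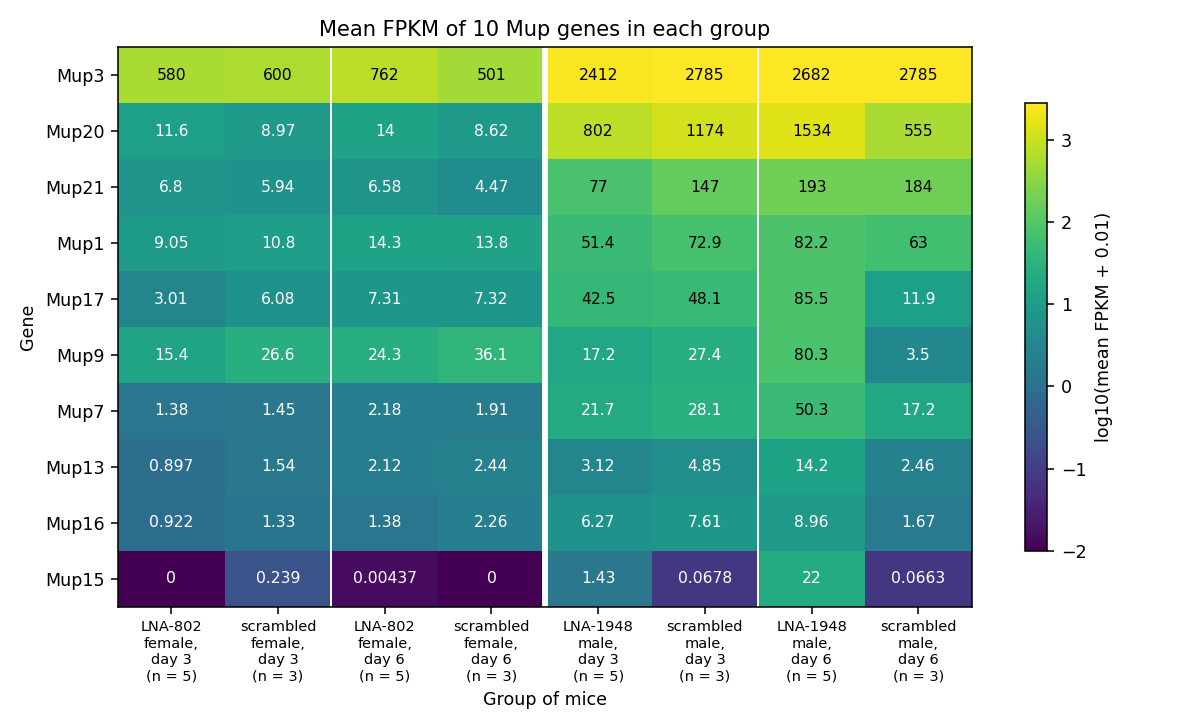
Mean FPKM of the 10 Mup genes (rows) in the 8 groups (columns), with the colour on a log10(mean FPKM + 0.01) scale and the mean printed in each cell. Mup3 has the highest mean in every column, and Mup9 and Mup15 reach 80.3 and 21.96 FPKM in LNA-1948 males at day 6, against 3.502 and 0.0663 FPKM in scrambled males at day 6.

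Summed over the 10 genes, the means came to 3435 FPKM in LNA-1948 males and 4295 FPKM in scrambled males at day 3, and to 4752 FPKM in LNA-1948 males and 3625 FPKM in scrambled males at day 6. The female sums were 629 FPKM with LNA-802 and 663 FPKM with scrambled LNA at day 3, and 835 FPKM with LNA-802 and 578 FPKM with scrambled LNA at day 6. The highest sum, in LNA-1948 males at day 6, was 2.34% of all FPKM of its group, and the lowest, in scrambled females at day 6, was 0.291%. Mup3 made up 86.7% to 92.2% of the sum in females and 56.4% to 76.8% in males. Without Mup3 the sum was 2070.4 FPKM in LNA-1948 males and 839.7 FPKM in scrambled males at day 6. The sum is thus largely a measure of Mup3 in females and of Mup3 with Mup20 in males.

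**Figure D3:**
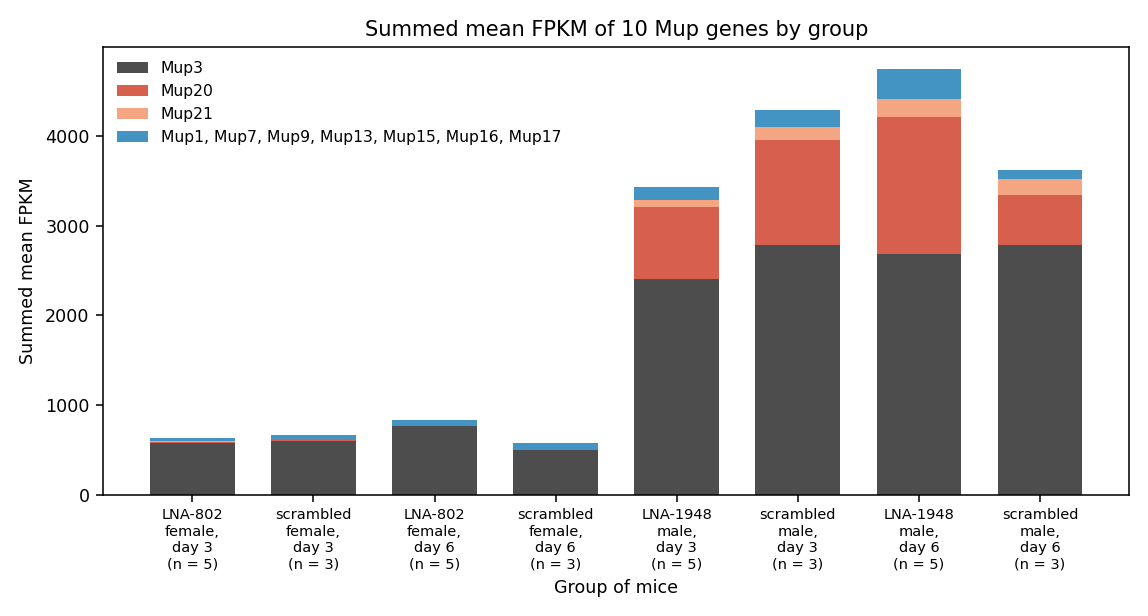
Summed mean FPKM of the 10 Mup genes in each group, as bars stacked from Mup3, Mup20, Mup21 and the 7 central genes. Sums are 578 to 835 FPKM in the 4 female groups and 3435 to 4752 FPKM in the 4 male groups, and Mup3 is the tallest piece in all 8.

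The comparison of LNA-1948 with scrambled LNA in males asks what inhibition of miR-1948-5p does to liver RNA. At day 6, 4 of the 10 Mup genes rose and 0 fell at an adjusted p under 0.05 in the authors' deposited table (edgeR), where 0.124% of all 24197 genes passed in either direction and 0.0413% passed as higher. Those that rose were the central genes Mup9, Mup15, Mup16 and Mup17. Because the genes were listed with these results known, the count is not set against that background. The 3 edge genes did not pass, nor did the central genes Mup1, Mup7 and Mup13.

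Mup9 averaged 80.3 FPKM in LNA-1948 males and 3.502 FPKM in scrambled males at day 6. The ratio in the authors' deposited table was 22.2 (edgeR adjusted p = 0.00021). The scrambled mean at day 6 was the lowest of all 8 group means for this gene, as it stood at 27.4 FPKM in scrambled males at day 3 and at 26.6 and 36.1 FPKM in scrambled females at day 3 and day 6. The LNA-1948 mean at day 6 was also the highest of the 8. Mup17 averaged 85.5 FPKM in LNA-1948 males and 11.9 FPKM in scrambled males, with a ratio of 6.81 by the authors' deposited table (edgeR adjusted p = 0.00747). Mup16 averaged 8.96 FPKM in LNA-1948 males and 1.67 FPKM in scrambled males, with a ratio of 5.12 by the authors' deposited table (edgeR adjusted p = 0.00566). For both genes the scrambled mean at day 3 was well above that at day 6, at 48.1 FPKM for Mup17 and 7.61 FPKM for Mup16. Mup15 averaged 21.96 FPKM in LNA-1948 males and 0.0663 FPKM in scrambled males, and the authors' deposited table puts it past the threshold (edgeR adjusted p = 0.0137). Its ratio rests on a control mean near 0, its transcript has no 50-base window of its own, and its row overlaps those of Mup2 and Mup7.

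The other 6 genes did not pass. Mup20 averaged 1534 FPKM in LNA-1948 males and 555 FPKM in scrambled males at day 6, a ratio of 2.65 by the authors' deposited table (edgeR adjusted p = 0.0658). Mup13 averaged 14.2 FPKM in LNA-1948 males and 2.46 FPKM in scrambled males, a ratio of 5.51 by the authors' deposited table (edgeR adjusted p = 0.240). Mup7 averaged 50.3 FPKM in LNA-1948 males and 17.2 FPKM in scrambled males, a ratio of 2.80 by the authors' deposited table (edgeR adjusted p = 1). In absolute level, then, the widest gap between the groups was that of Mup20, which missed the threshold. Mup1, at 82.2 FPKM with LNA-1948 and 63.0 FPKM with scrambled LNA, had a deposited ratio of 1.25, and Mup21, at 193 FPKM with LNA-1948 and 184 FPKM with scrambled LNA, one of 1.00. Mup3 had a deposited ratio of 0.927. The abundant edge genes Mup3 and Mup21 thus had nearly equal means at day 6 while 4 central genes differed.

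At an unadjusted p under 0.05, 7 of the 10 genes were higher with LNA-1948 at day 6 and 0 lower in the authors' deposited table (edgeR), where 3.07% of all genes passed. The median log2 ratio over the 10 genes was 1.92, and over the 9200 genes that reached 1 FPKM in 1 of the 2 groups or both it was 0.01. Among the other 10 Mup rows, 0 passed the adjusted threshold and 4 passed at an unadjusted p under 0.05, all higher. Mup14, another close copy of the central genes, averaged 115 FPKM in LNA-1948 males and 67.9 FPKM in scrambled males (deposited ratio 1.63, edgeR adjusted p = 0.949). Mup10, a close copy of the central genes and the most abundant one of that kind, averaged 857 FPKM in LNA-1948 males and 759 FPKM in scrambled males (deposited ratio 1.09, edgeR adjusted p = 1). The Mup10 level exceeded the summed level of the 7 central genes in every group, so the high ratios belong to copies listed at lower FPKM.

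**Figure D4:**
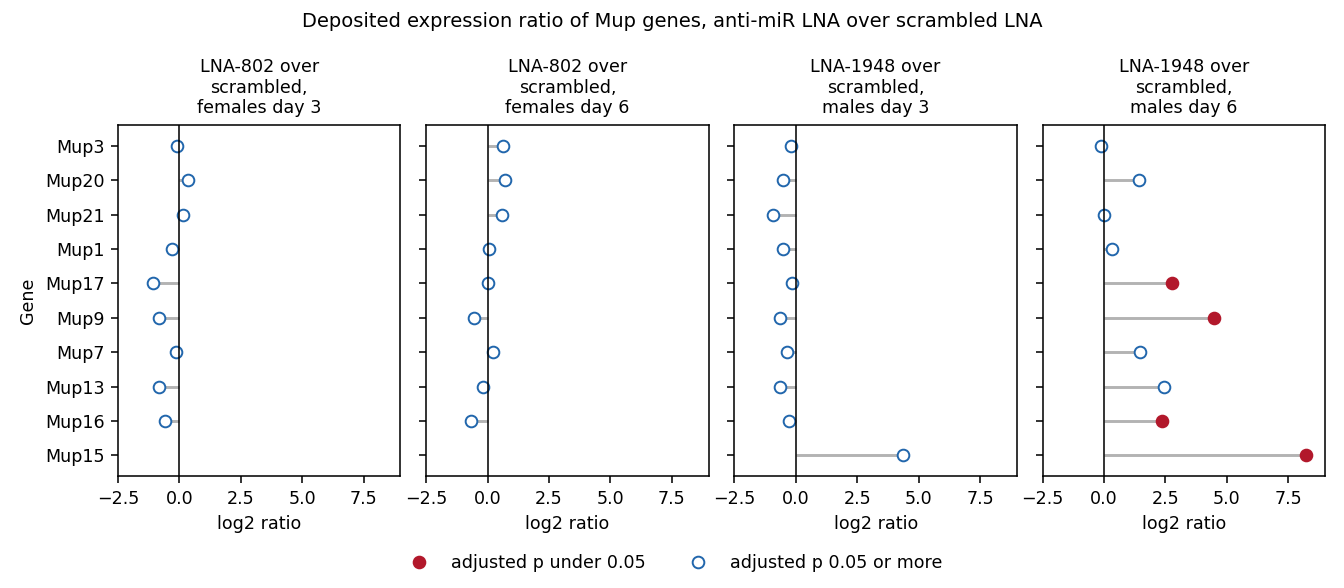
Log2 of the deposited ratio of the 10 Mup genes, anti-miR LNA over scrambled LNA, in each of the 4 comparisons, with filled points where the authors' adjusted p is under 0.05 and open points elsewhere. Filled points appear at day 6 in males alone, for Mup9, Mup15, Mup16 and Mup17, and no point is drawn for Mup15 in females, where a group mean is listed at 0.

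At day 3 in males, 0 of the 10 genes passed in the authors' deposited table (edgeR), where 0.0537% of all genes did. At an unadjusted p under 0.05, 3 were lower and 1 higher, while 2.76% of all genes passed that rule. Mup21 averaged 77.0 FPKM in LNA-1948 males and 147 FPKM in scrambled males, a ratio of 0.521 by the authors' deposited table (edgeR adjusted p = 0.708). Mup13 averaged 3.12 FPKM in LNA-1948 males and 4.85 FPKM in scrambled males (deposited ratio 0.643, edgeR adjusted p = 0.799), and Mup1 51.4 FPKM in LNA-1948 males and 72.9 FPKM in scrambled males (deposited ratio 0.706, edgeR adjusted p = 1). Mup15 was the exception in direction, at 1.43 FPKM in LNA-1948 males and 0.0678 FPKM in scrambled males (edgeR adjusted p = 1). The ratio was below 1 for 9 of the 10 genes at day 3 and above 1 for 9 of the 10 at day 6, with medians of -0.43 and 1.92 on the log2 scale. The difference between days was not tested, since the table holds no value per mouse and each day has its own libraries. At day 3 the Kupffer cell markers summed to 69.4 FPKM in LNA-1948 males and 47.5 FPKM in scrambled males, with a ratio above 1 for all 8 markers at 1 FPKM or more. Of these markers 0 passed, and 8 did at an unadjusted p under 0.05, all higher (edgeR). Their part in the Mup values was not tested.

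In females, LNA-802 moved none of the 10 genes past the threshold at either day (edgeR, authors' deposited table). The share of all genes that passed was 0.0165% at day 3 and 0.339% at day 6. Unadjusted p was under 0.05 for 2 of the 10 at day 3, both lower, when 2.63% of all genes passed that rule, and for 3 at day 6, of which 2 were higher, when 4.41% did. They were Mup13 and Mup15 at day 3, and Mup3 and Mup20, higher, with Mup16, lower, at day 6.

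At day 3, Mup15 was listed at 0 in LNA-802 females and at 0.239 FPKM in scrambled females (edgeR adjusted p = 0.191), and Mup13 averaged 0.897 FPKM in LNA-802 females and 1.54 FPKM in scrambled females (deposited ratio 0.566, edgeR adjusted p = 1). Mup17 averaged 3.01 FPKM in LNA-802 females and 6.08 FPKM in scrambled females, and Mup9 15.4 FPKM in LNA-802 females and 26.6 FPKM in scrambled females, with deposited ratios of 0.480 and 0.564 (edgeR adjusted p = 1 for each). Deposited ratios of the other central genes were 0.918 for Mup7, 0.816 for Mup1 and 0.675 for Mup16. Those of the 3 edge genes were 0.942 for Mup3, 1.26 for Mup20 and 1.12 for Mup21. All edge genes thus had higher ratios than all central genes, though Mup3 and Mup7 lay close together. The deposited ratio of Mup15, 0.0104, rests on a mean listed at 0. Whether the 2 sets differ was not tested. The median log2 ratio was -0.43, against 0.01 over all 9418 genes at 1 FPKM or more, and its value does not depend on the size of the Mup15 ratio.

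At day 6 the 3 edge genes had higher ratios than the central genes apart from Mup15. Mup20 averaged 14.03 FPKM in LNA-802 females and 8.62 FPKM in scrambled females (deposited ratio 1.65, edgeR adjusted p = 0.418). Mup3 averaged 762.5 FPKM in LNA-802 females and 501 FPKM in scrambled females (deposited ratio 1.54, edgeR adjusted p = 1), and Mup21 6.58 FPKM in LNA-802 females and 4.47 FPKM in scrambled females (deposited ratio 1.498). On the side of the central genes, Mup9 averaged 24.3 FPKM in LNA-802 females and 36.1 FPKM in scrambled females (deposited ratio 0.679), and Mup16 1.38 FPKM in LNA-802 females and 2.26 FPKM in scrambled females (deposited ratio 0.621, edgeR adjusted p = 0.934). The 6 central genes other than Mup15 had deposited ratios of 0.621 to 1.16, all below those of the 3 edge genes. Mup15 had a deposited ratio of 2.70, above the edge genes. It was listed at 0.00437 FPKM in LNA-802 females and at 0 in scrambled females, so this ratio rests on means at or near 0. The median log2 ratio was 0.14 over the 10 genes and -0.16 over all 20 Mup rows, so its sign depends on which rows are counted. Without Mup3, the summed level was 72.2 FPKM in LNA-802 females and 76.9 FPKM in scrambled females, lower rather than higher with LNA-802. Among the other 10 Mup rows, 10 of 10 had a ratio below 1 in females at day 6. The Kupffer cell markers summed to 67.3 FPKM in LNA-802 females and 83.03 FPKM in scrambled females at day 6, with 0 passing and 5 lower at an unadjusted p under 0.05 (edgeR), and their part in the Mup values was not tested.

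Scrambled males were compared with scrambled females to show the sex difference of each gene under the control LNA. At day 3, 8 of the 10 genes were higher in males at an adjusted p under 0.05 (edgeR, authors' deposited table), where 3.36% of all genes passed and 1.37% passed as higher in males. At day 6, 6 were higher and 1 lower in males, where 4.43% of all genes passed, 1.91% as higher and 2.52% as lower in males. The median log2 ratio over the 10 genes was 2.64 at day 3 and 2.42 at day 6, against 0.04 and 0.02 over all genes at 1 FPKM or more. These comparisons share their scrambled males with the LNA-1948 comparisons of the same day and their scrambled females with the LNA-802 comparisons.

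Mup20 had the widest sex difference among the 10, with means of 1174 FPKM in males and 8.97 FPKM in females at day 3, a ratio of 131 by the authors' deposited table (edgeR adjusted p = 5.59e-80). At day 6 its means were 555 FPKM in males and 8.62 FPKM in females, a deposited ratio of 68.8 (edgeR adjusted p = 1.62e-175). Mup21 followed, at 147 FPKM in males and 5.94 FPKM in females at day 3 (deposited ratio 25.1, edgeR adjusted p = 3.26e-63). Of the genes outside the central block, Mup3 thus had the narrowest sex difference, with deposited ratios of 4.68 at day 3 and 5.91 at day 6 (edgeR adjusted p = 1.11e-23 and 4.05e-17). Mup7 was the central gene with the widest difference at day 3. It stood at 28.1 FPKM in males and 1.45 FPKM in females at day 3 (deposited ratio 19.5, edgeR adjusted p = 7.84e-56) and at 17.2 FPKM in males and 1.91 FPKM in females at day 6 (deposited ratio 9.69, edgeR adjusted p = 5.05e-21). Mup1 had deposited ratios of 6.79 and 4.85 on the 2 days (edgeR adjusted p = 3.84e-54 and 3.94e-06).

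Several central genes passed at day 3 and not at day 6. Mup17 averaged 48.1 FPKM in males and 6.08 FPKM in females at day 3 (deposited ratio 7.93, edgeR adjusted p = 4.47e-07), and 11.9 FPKM in males and 7.32 FPKM in females at day 6 (deposited ratio 1.73, edgeR adjusted p = 0.620). Mup16 had a deposited ratio of 5.73 at day 3 (edgeR adjusted p = 4.91e-13) and 0.794 at day 6 (edgeR adjusted p = 1), and Mup13 of 3.17 at day 3 (edgeR adjusted p = 1.22e-05) and 1.08 at day 6 (edgeR adjusted p = 1). These are genes whose male mean was lower at day 6, while their female means were not. Mup9 stood apart: it averaged 27.4 FPKM in males and 26.6 FPKM in females at day 3 (deposited ratio 1.03, edgeR adjusted p = 1), and 3.502 FPKM in males and 36.1 FPKM in females at day 6, where it was 9.72-fold lower in males by the authors' deposited table (edgeR adjusted p = 1.05e-15). Mup15 averaged 0.0663 FPKM in males and was listed at 0 in females at day 6 (edgeR adjusted p = 0.0402), so it passed at a level near 0. Whether the sex difference itself changed between days was not tested.

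**Figure D5:**
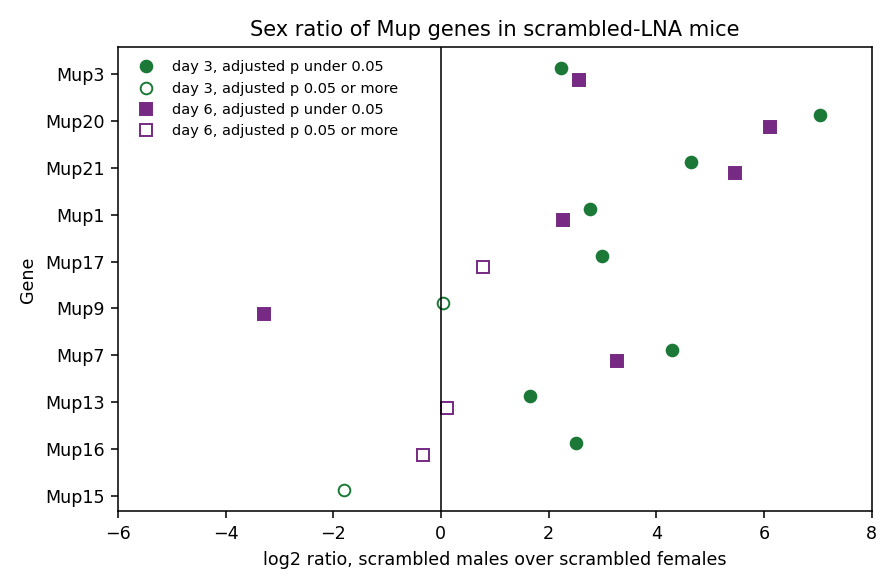
Log2 of the deposited ratio of scrambled males over scrambled females for the 10 Mup genes, as circles for day 3 and squares for day 6, filled where the authors' adjusted p is under 0.05. Mup20 lies farthest right at both days, and Mup9 lies at 0.04 for day 3 and at -3.28 for day 6, while Mup15 at day 6 is not drawn because its female mean is listed at 0.

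Day 6 was set beside day 3 within each treatment, with no test, because the 2 days come from different libraries. In LNA-1948 males all 10 genes had a higher mean at day 6, and in scrambled males 8 of 10 had a lower one, the exceptions being Mup3 and Mup21. Medians of the log2 ratio of mean FPKM with 1 added to each mean were 1.08 in LNA-1948 males and -0.72 in scrambled males. Mup20 shows both directions, since its day 6 mean was 1.91 times the day 3 mean in LNA-1948 males and 0.473 times in scrambled males. Mup9 likewise stood at 4.67 times its day 3 mean in LNA-1948 males and at 0.128 times in scrambled males, and Mup17 at 2.01 times in LNA-1948 males and 0.247 times in scrambled males. In LNA-802 females 9 of 10 were higher at day 6 and in scrambled females 6 of 10, with medians of 0.41 and 0.24. Of the 10 genes, 9 had their highest mean of all 8 groups in LNA-1948 males at day 6, Mup3 being the exception. The ratios at day 6 in males therefore combine high means with LNA-1948 and low means in the 3 scrambled males of that day, and which mice set either mean is not visible in group means.

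Each gene was also set against the sum of the other 9 over the 8 group means, as log2(mean FPKM + 1), where the spread is mostly that between the sexes. Pearson's r was 0.97 to 0.99 for Mup1, Mup3, Mup7, Mup20 and Mup21. It was 0.88 for Mup17, 0.80 for Mup16, 0.74 for Mup13 and 0.53 for Mup15. Mup9 had a value near 0, at -0.07. Among 315 genes outside the family with at least 5 FPKM in the highest group and a range of at least 1 on that scale, the summed Mup level was most like C8b, which encodes a subunit of complement component C8, at r of 0.999. After it came the cytochrome P450 genes Cyp2c67 and Cyp2f2 at 0.998 each, and then C8a, which encodes another C8 subunit, at 0.997. With 8 means in which males and females fall apart, such values cannot be told apart from a shared sex difference.

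Genes of the growth hormone and STAT5 pathway and other regulators known for Mup genes were read from lists. At day 6 in males, 0 of 22 growth hormone and STAT5 pathway genes and 0 of 18 listed Mup regulators passed in the authors' deposited table (edgeR). At an unadjusted p under 0.05, 1 pathway gene was higher and 1 lower, and 2 regulators were higher and 1 lower, where 3.07% of all genes passed that rule. Among these regulators, Dbp averaged 3.58 FPKM in LNA-1948 males and 0.877 FPKM in scrambled males (deposited ratio 3.89). Hlf had a deposited ratio of 1.20 and Esr1 one of 0.754. The median log2 ratios of the 2 lists were -0.03 over 19 pathway genes and 0.03 over 14 regulators at 1 FPKM or more. Stat5b, the main STAT5 of male liver, averaged 6.03 FPKM in LNA-1948 males and 6.10 FPKM in scrambled males, and Ghr, the growth hormone receptor, 78.1 FPKM in LNA-1948 males and 74.3 FPKM in scrambled males. Among STAT5 targets, Socs2, a feedback inhibitor, averaged 4.46 FPKM in LNA-1948 males and 6.77 FPKM in scrambled males (deposited ratio 0.638, edgeR adjusted p = 0.357). Cish, another feedback inhibitor, had a deposited ratio of 1.18, and Igf1, the circulating growth factor induced by growth hormone, one of 0.887 (edgeR adjusted p = 1 for each).

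Bcl6, a repressor that opposes STAT5 at many sex-biased genes, averaged 5.15 FPKM in LNA-1948 males and 2.02 FPKM in scrambled males (deposited ratio 2.40, edgeR adjusted p = 1). Zhx2, a homeobox regulator of several liver gene families, had a deposited ratio of 1.06 (edgeR adjusted p = 1). The zinc finger repressors Rsl1 and Zfp458, known for limiting sex-dependent liver genes, were barely detected: Rsl1 averaged 0.130 FPKM in LNA-1948 males and 0.155 FPKM in scrambled males, and Zfp458 0.240 FPKM in LNA-1948 males and 0.187 FPKM in scrambled males. At such levels no change of either repressor could be read. Cux2, a factor of female liver, was at 0.05 FPKM in both male groups of day 6.

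Other sex-biased genes were read beside the Mup genes. Of 30 listed male-biased genes, 1 rose and 0 fell at day 6 in males, where 0.124% of all genes passed in either direction. Of the 28 at 1 FPKM or more, 23 lay above a ratio of 1, and the median log2 ratio was 0.18. The 1 that rose was Cyp7b1, which encodes an oxysterol hydroxylase, at 89.6 FPKM in LNA-1948 males and 39.98 FPKM in scrambled males (deposited ratio 2.14, edgeR adjusted p = 0.00839). Of 35 listed female-biased genes, 0 rose and 6 fell. Examples are the cytochrome P450 gene Cyp2c40, at 2.70 FPKM in LNA-1948 males and 19.9 FPKM in scrambled males (edgeR adjusted p = 0.0460), and the hydroxyacid oxidase gene Hao2, at 1.52 FPKM in LNA-1948 males and 8.90 FPKM in scrambled males (edgeR adjusted p = 0.0145). The female-biased list did not move 1 way, since of its 15 genes at 1 FPKM or more 9 had a ratio below 1 and 6 above, with a median log2 ratio of -0.51. At an unadjusted p under 0.05 (edgeR), a rule that 3.07% of all genes passed, 10 of the listed genes were lower and 2 higher. At day 3 in males, where no Mup gene and 0.0537% of all genes passed, 3 of the female-biased genes rose and 0 fell. Hao2 was 1 of these 3, at 7.95 FPKM in LNA-1948 males and 2.04 FPKM in scrambled males (deposited ratio 3.87, edgeR adjusted p = 9.48e-05). It thus passed in opposite directions on the 2 days. By the unadjusted rule (edgeR p under 0.05), which 2.76% of all genes passed at day 3, 18 of the 35 female-biased genes were higher and 1 lower. The median log2 ratio over the 19 of them at 1 FPKM or more was 0.70. Of the male-biased genes 0 passed at day 3, with 10 lower and 0 higher by the unadjusted rule. In LNA-802 females at day 6, where 0.339% of all genes passed, 2 of the male-biased genes rose, while 1 of the female-biased genes rose and 4 fell. By the unadjusted rule (edgeR), which 4.41% of all genes passed there, 7 male-biased genes were higher and 1 lower. Of the female-biased genes 1 was higher and 14 were lower by that rule, with a median log2 ratio of -0.52. Of 10 other liver lipocalins in the table, 0 passed in any anti-miR comparison (edgeR). At an unadjusted p under 0.05 at most 2 did in one, LNA-802 females at day 6, where 4.41% of all genes passed that rule.

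Cell type markers at day 6 in males were read last. The 8 hepatocyte markers summed to 23989 FPKM in LNA-1948 males and 28619.5 FPKM in scrambled males. Alb, at 14069 FPKM in LNA-1948 males and 17776 FPKM in scrambled males, held most of that sum. The deposited ratio was below 1 for 8 of 8, with 0 passing and 2 at an unadjusted p under 0.05 (edgeR), both lower. By group means, Apob (412 and 406 FPKM) and Tat (171 and 166 FPKM) were slightly higher in LNA-1948 males than in scrambled males. Kupffer cell markers summed to 48.5 FPKM in LNA-1948 males and 50.3 FPKM in scrambled males, endothelial markers to 51.6 FPKM in LNA-1948 males and 50.3 FPKM in scrambled males, and stellate cell markers to 34.9 FPKM in LNA-1948 males and 35.4 FPKM in scrambled males. The part of cell makeup in the Mup values was not tested.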

How the data were processed

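Liver poly(A) RNA of 32 mice in 8 groups was sequenced. Per the submitters' processing notes, TopHat2, featureCounts and edgeR were used with mm9; versions are not given. The authors deposited group mean FPKM. The ratio of expression between groups and a p-value, unadjusted and adjusted, are theirs too, per the file headers. The adjusted p equalled a Benjamini-Hochberg adjustment over 24197 genes, which was checked. The deposited table has no counts and no values of single mice, so the planned fits on such values could not be run; depth and precision are unknown, and the authors' edgeR p is the only measure that reflects spread between mice.

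Members and gene lists were chosen with earlier results of these data known. From the table, sums, medians of log2 ratios, counts at an adjusted p under 0.05 and ratios of day 6 to day 3 were computed with Python 3.11.15 and pandas 2.3.3. The Benjamini-Hochberg adjustment and the correlation measure were tested on simulated data first. 1 block of the table lists genes in another order and was joined by its own symbols. Lists were described over genes reaching 1 FPKM in a group compared. Named genes are all Mup rows, up to 4 genes of each list by smallest adjusted p at day 6 in males, 10 regulators named always and the 5 genes most like the Mup sum, of which 1 is not reported here. Transcripts (GENCODE, longest coding per gene) were aligned with Biopython 1.88; reference coordinates are GRCm38 and are not mixed with mm9. Alternatives tried were other thresholds on p, pseudocounts of 1 and 0.01, a filter at 1 FPKM, all Mup rows, sums without Mup3 and rescaling without Mup genes.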

Additional observations from a re-analysis of the deposited data

How the results depend on the processing

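No paired analysis was possible because the table holds group means and no values per mouse. For the same reason leaving out a mouse, a block and a count test were not run, and any influence of single mice is unseen. Of 78 alternative values for 22 results, 61 kept their direction and lay within a factor of 1.5 of the reported value, 13 lay outside that and 4 changed sign. For log2 ratios the factor was applied to the ratio itself, so a small log2 value could move by more than 1.5 times its size. With an unadjusted p under 0.05, members counted numbered 2 and 3 in LNA-802 females at day 3 and day 6, against 0 each, and 4 and 7 in LNA-1948 males, against 0 and 4. At an adjusted p under 0.1, 5 members counted in LNA-1948 males at day 6, Mup20 joining, and under 0.01, 3.

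The 4 changes of sign were all in females. For LNA-802 at day 6, the median of 0.14 became -0.16 over all Mup rows, and the log2 ratio of sums of 0.53 became -0.0904 without Mup3. For scrambled females, day 6 over day 3, the log2 ratio of sums of -0.20 became 0.0312 with all Mup rows and 0.29 without Mup3. In LNA-1948 males at day 6 the median of 1.92 was 1.25 over all Mup rows, and the log2 ratio of sums of 0.39 was 1.30 without Mup3. For scrambled males over females at day 3, the median of 2.64 was 1.94 over all Mup rows and the sum of 2.70 was 4.58 without Mup3. At day 6 the median of 2.42 was 1.37 with a pseudocount of 1 and 0.82 over all Mup rows, and the sum of 2.65 was 2.06 with all Mup rows and 3.45 without Mup3. For scrambled males, day 6 over day 3, the sum of -0.24 was -0.85 without Mup3. Mup3 holds most of each sum, so leaving it out gives the genes with lower means more weight.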

Other observations

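Among the other 10 Mup rows of the table, Mup6 had the opposite sex difference at both days. This gene, at the low end of the cluster, averaged 1.03 FPKM in scrambled males and 3.14 FPKM in scrambled females at day 3, 3.02-fold lower in males by the authors' deposited table (edgeR adjusted p = 0.0179). At day 6 it averaged 0.585 FPKM in scrambled males and 4.49 FPKM in scrambled females, 7.15-fold lower in males (edgeR adjusted p = 5.67e-17, authors' deposited table). Mup2 and Mup4 were also lower in males at day 6 at an adjusted p under 0.05, and Mup2 averaged 0.619 FPKM in scrambled males and 3.91 FPKM in scrambled females there. At day 3 Mup2 had the other direction and did not pass, with 2.39 FPKM in scrambled males and 0.818 FPKM in scrambled females (deposited ratio 2.92, edgeR adjusted p = 0.361). Mup5 and Mup14 were higher in males at both days at that threshold, and Mup8, Mup10 and Mup12 passed as higher in males at day 3. At day 6 none of these 3 passed (edgeR): Mup10 had a deposited ratio of 1.81 (adjusted p = 0.179), Mup8 one of 2.42 (adjusted p = 0.676) and Mup12 one of 0.181 (adjusted p = 0.342). Whether these differences changed between the days was not tested.

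Mup12 averaged 12.1 FPKM in LNA-802 females and 0.601 FPKM in scrambled females at day 3, and 5.44 FPKM in LNA-802 females and 10.7 FPKM in scrambled females at day 6. Its deposited ratio at day 3 was 19.5 (edgeR adjusted p = 0.786, authors' deposited table), and it did not pass.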
